A study of Homo sapiens with 9 samples.

Results

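CD47 is a single gene on the minus strand of chromosome 3, and its QKI-5 binding peaks were read along its whole length. A peak was taken as a CD47 peak when it lay on the minus strand and its centre fell inside the gene as GENCODE release 44 places it on hg19, chr3:107761938-107810709 (ENSG00000196776.17_13, 48772 nt). By this rule CD47 had 21 of the 24037 peaks in the list, and no peak on the opposite strand fell within the gene. The peaks came from HITS-CLIP, in which living cells are irradiated with ultraviolet light so that proteins bond to the RNAs in contact with them, and the RNA fragments that an antibody brings down are sequenced. The cells were mesHMLE, a mesenchymal derivative of the HMLE line of human mammary epithelial cells (the labels name the cell type as breast cancer). They had arisen by prolonged TGF-β1 treatment, given as 2.5 ng/ml for at least 14 days, were kept without further TGF-β1 and were crosslinked at 600 mJ/cm2. Immunoprecipitation with a QKI-5 antibody gave 7 libraries from 3 technical replicates, 3 from the gel region of the QKI monomer and 4 from that of the presumptive dimer, 1 of which was made with SuperScript IV. The other 2 libraries were size-matched input, used by the authors as the control when peaks were called. All libraries came from the same cell line, so no condition was compared. The authors pooled the immunoprecipitation libraries before calling peaks, so no value here has a spread between replicates, and the depth of each library cannot be read from the list.

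CD47 is a membrane protein found on most cells. Outside the cell it is bound by SIRPA on macrophages, which restrains phagocytosis, and by thrombospondin, and it also associates with integrins. After its membrane-spanning segments the protein ends in a short cytoplasmic tail, whose length is set by alternative exons, and its long 3′UTR is known for a role in carrying the protein to the cell surface. QKI-5 is the nuclear isoform of the RNA-binding protein Quaking, which regulates splicing and binds ACUAAC or closely related sequences, usually with a second, shorter UAAC or UAAU nearby. With T written for U, the full motif was taken as ACTAAC or ACTAAT and the shorter one as TAAC or TAAT.

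Exons are numbered along the transcript CD47-202, which has 11 exons and runs from 107809878 down to 107761938. Exon 8 (32 nt, chr3:107770786-107770817), exon 9 (25 nt, chr3:107769425-107769449) and exon 10 (33 nt, chr3:107768466-107768498) encode the tail, and exon 11 carries the stop codon of that transcript and a 3′UTR of 4197 nt. In the annotation CD47-201 passes from exon 8 straight to exon 11, CD47-205 carries exon 9 without exon 10, and CD47-202 and CD47-203 carry both. The splice sites of the tail exons are shown first because the peaks described next are placed by their distance from these exons. Each line is 30 nt of hg19 read 5′ to 3′ on the minus strand, with the exon bases in capitals.

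Acceptor of exon 8, chr3:107770813-107770842: tattcttatttgttatttatatcagCTTCC
Donor of exon 8, chr3:107770766-107770795: ACCTCCTAGGgtaagttaaagtttattaaa
Acceptor of exon 9, chr3:107769445-107769474: taaatatattttaaatatttttcagAAAGC
Donor of exon 9, chr3:107769405-107769434: CCCCTTAATGgtatgtggttatttcactct
Acceptor of exon 10, chr3:107768494-107768523: ctgcttggcttgttactaatcctagCATTC
Donor of exon 10, chr3:107768446-107768475: ATGAATGATGgtaagtataaaatgcactta

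The 25 nt of exon 9 read AAAGCTGTAGAGGAACCCCTTAATG and hold a TAAT, but no peak reached that exon. The 25 nt of exon 9 are not a whole number of codons, so exons 10 and 11 are read in different frames with and without it, whereas the 33 nt of exon 10 keep the frame. Translated from the annotated sequence, a transcript without either exon encoded 305 residues, with 12 whole codons after exon 7. Exon 9 alone gave 312 residues and 19 such codons. Exon 10 alone, a form that none of the transcripts named above has, gave 310 residues and 17 codons. It ended in a stop codon within exon 10. With both exons the protein had 323 residues and 30 codons after exon 7. The study followed CD47 splicing by PCR, and its primers for the gene were ttccaatcagaagactatacaacc in exon 8 (chr3:107770793-107770816) and cctaggacctgaaaggcatca in exon 11 (chr3:107765821-107765841). On the annotated sequence they enclose 350 nt with neither exon, 375 nt with exon 9, 383 nt with exon 10 and 408 nt with both.

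All 21 CD47 peaks had their centres in introns 7 to 10, the introns between exon 7 and exon 11. Introns 1 to 6, which range from 767 to 10518 nt and include the 3 longest introns of the gene, had 0 peaks, as did every exon and the 3′UTR when peaks were placed by their centre. The peaks lay between 107767601 and 107774979, a stretch of 7379 nt or 15.1% of the gene. The first began 34899 nt from the transcript start, and the last ended 1461 nt before exon 11. In the whole list 8.71% of nuclear peaks had their centre in an annotated 3′UTR of a coding gene. The share of 0 of 21 in CD47 has an upper 95% Wilson limit of 15.5%, above the share of the list. Intervals of shares here cover counting error only. They treat the peaks as independent, although many CD47 peaks lay close together, so no difference from the list was judged from them.

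**Figure D1:**
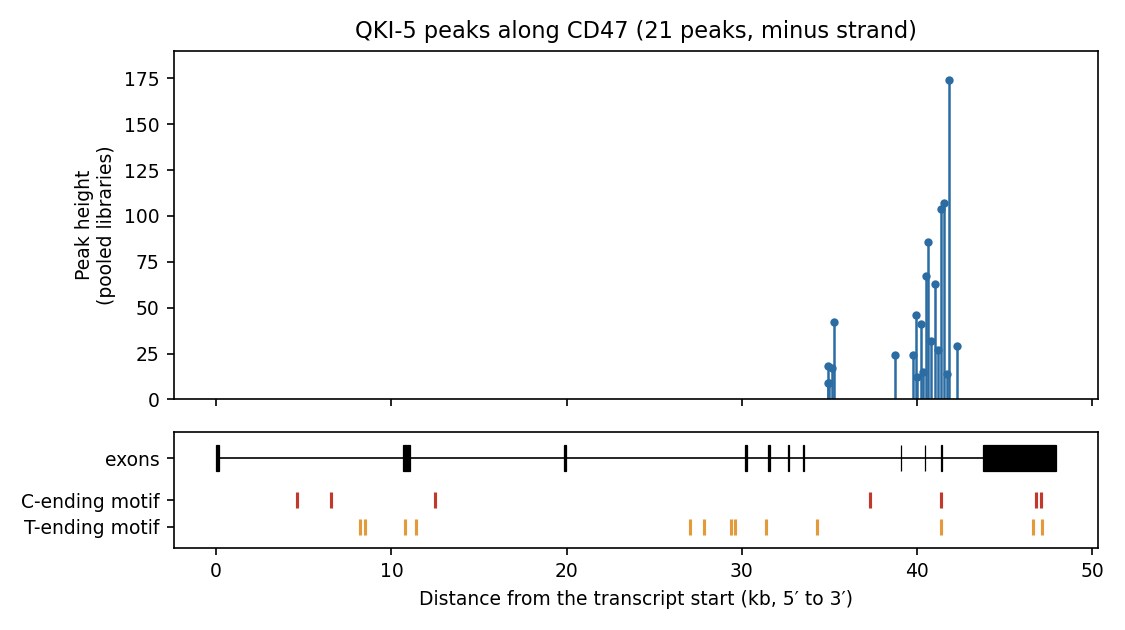
The upper panel plots the height of each of the 21 CD47 peaks (pooled libraries) at its summit against the distance from the transcript start in kb. The lower panel shows the exons as boxes and the positions of the 7 ACTAAC sites (C-ending) and 13 ACTAAT sites (T-ending). All peaks sit in the 7379 nt that contain exons 8 to 10, whereas motif sites also lie in the first introns and in the last exon.

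The density of peaks was highest in intron 9, between the alternative exons. Intron 7 (5506 nt) had 6 peaks, or 1.09 per kb, and 5.85% of its bases lay in a peak. Intron 8 (1336 nt) had 5 peaks, or 3.74 per kb, which covered 25.7% of its bases. Intron 9 (926 nt) had 6 peaks, or 6.48 per kb, and 62.3% of its bases lay in a peak. Intron 10 (2326 nt) had 4 peaks, or 1.72 per kb, and 18.5% of its bases were covered. Intron 9 is thus the shortest of these 4 introns and the most densely covered. Peak height, a signal of the pooled libraries, had a median of 17.5 in intron 7 (range 9 to 42), 24 in intron 8 (12 to 46), 65 in intron 9 (27 to 104) and 68 in intron 10 (14 to 174). The ranges of the 4 introns overlapped, and with 4 to 6 peaks in each no test between introns was made.

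**Figure D2:**
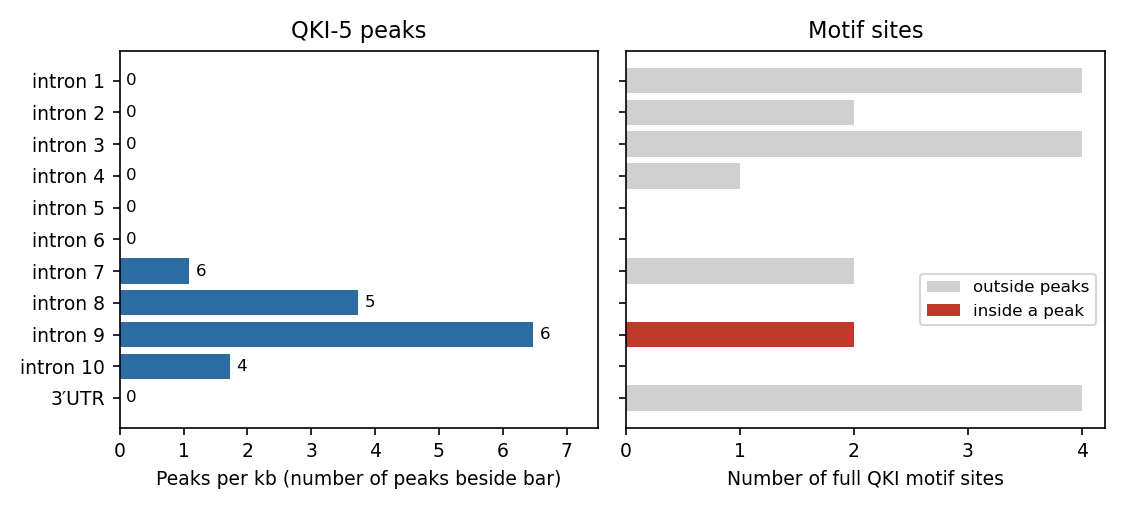
The left panel shows the number of peaks per kb in each intron of CD47 and in its 3′UTR, with the number of peaks beside each bar, from 0 in introns 1 to 6 to 6.48 per kb in intron 9. The right panel shows the number of ACTAAC or ACTAAT sites in the same features, outside peaks in grey and inside a peak in red. Only intron 9 has sites inside a peak.

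Introns 8 to 10 held 15 of the 21 peaks. From the outer edge of the first of these peaks to that of the last were 2546 nt (chr3:107767601-107770146), or 5.22% of the gene. In this stretch 54.1% of the bases lay in a peak, a share that leaves out the peak-free ends of introns 8 and 10. Heights in this stretch ran from 12 to 174, with a median of 41 against a median of 23 over the whole list. Gaps between neighbouring peaks were 2 to 265 nt, whereas 966 nt separated the first of them from the nearest peak of intron 7. Of the peaks of CD47, 9 came within 250 nt of exon 9 or exon 10. Exon 9 had 5 peaks within that distance, 2 upstream and 3 downstream, and exon 10 had 4, 1 upstream, 1 overlapping its start and 2 downstream. Exon 8 had none within 250 nt and 1 within 500 nt. The nearest peaks to exon 9 were peak 11, which ended 83 nt before it, and peak 12, which began 10 nt after it, counting the 21 peaks from 5′ to 3′.

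**Figure D3:**
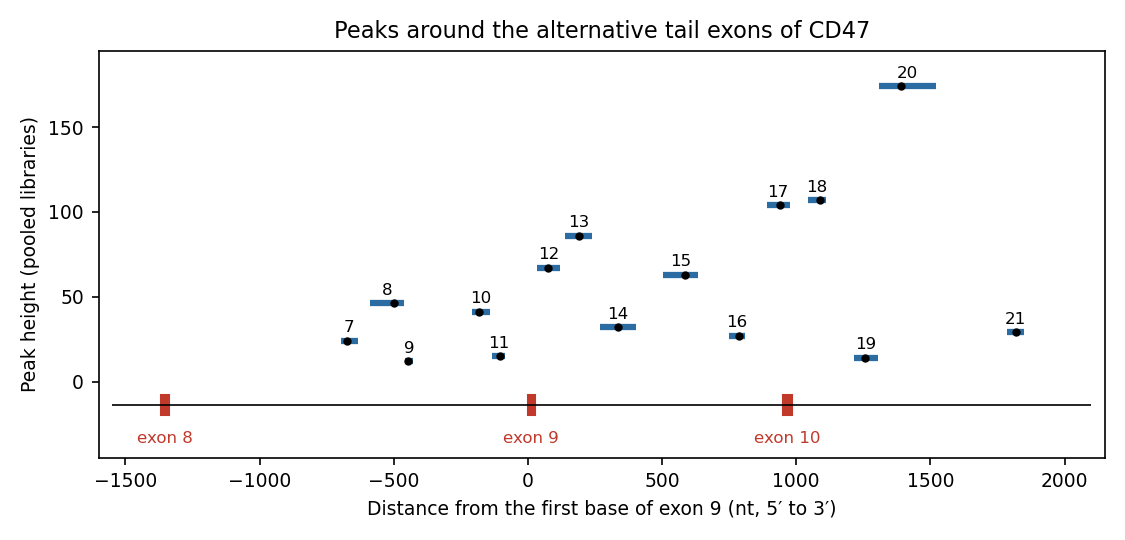
Each bar is 1 of the 15 peaks in introns 8 to 10, drawn over its width at its height (pooled libraries), with its summit as a black point and its number from 5′ to 3′ along the gene. The horizontal axis is the distance in nt from the first base of exon 9, and red boxes are exons 8, 9 and 10. Peaks flank exon 9 on both sides, peak 17 crosses the start of exon 10, and peak 20 in intron 10 is the tallest at 174.

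The tallest CD47 peak was peak 20 in intron 10 (chr3:107767928-107768142), with a height of 174, higher than 98.4% of nuclear peaks, and a width of 215 nt. It began 323 nt after exon 10. Peak 18 (chr3:107768339-107768404, 66 nt wide), 61 nt after the same exon, had a height of 107, and peak 17 (chr3:107768474-107768559, 86 nt wide), across its start, had a height of 104. These 3 peaks were the only ones of CD47 over 100, and all lay at or downstream of the acceptor of exon 10. In intron 9, peak 13 (chr3:107769209-107769309) reached 86, peak 12 (chr3:107769329-107769414) 67 and peak 15 (chr3:107768816-107768945) 63, higher than 95.1%, 92.8% and 92.1% of nuclear peaks. The other peaks of that intron short of exon 10, peaks 14 and 16, were lower, at 32 and 27. In intron 8 the heights were 24, 46, 12, 41 and 15 from 5′ to 3′, and the tallest, peak 8 (chr3:107769911-107770036), stood 461 nt before exon 9. Peak 10 (chr3:107769589-107769658), at 41, was 139 nt before that exon. Past exon 10, peak 19 had a height of 14 and peak 21 one of 29.

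Over the gene the median height was 29 (quartiles 17 and 63, 95% order-statistic interval 17 to 63), beside 23 for all nuclear peaks (quartiles 18 and 33). The interval treats the peaks as independent, although some neighbours lay only a few nt apart. With peaks merged within 50 nt, each region taking its tallest height, the medians were 44 for CD47 and 24 for the list. CD47 had 14 of 21 peaks at or above the list median and 7 below it, or 66.7% (interval 45.4 to 82.8%), beside 53.4% of the list. Widths ran from 2 to 215 nt with a median of 70 nt, and the list had a median of 61 nt. The list gives no RNA level along the gene, so a taller peak and more RNA at that place cannot be told apart from heights alone.

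Intron 7 held a group of 5 peaks and 1 single peak. Peaks 1 to 5 had heights of 18, 9, 9, 17 and 42 and lay within 362 nt, of which the smallest, peak 3, was 2 nt wide and only 2 nt from peak 2. They began 1344 nt into the intron and stood 204 to 565 nt upstream of a 47 nt exon (chr3:107774367-107774413) that the annotation has only in CD47-203. Peak 6 (chr3:107771113-107771167) had a height of 24 and lay 295 nt upstream of exon 8. It was also the only peak with its centre in an exon of any CD47 transcript, since the retained-intron transcript CD47-204 has an exon from 107770786 to 107773586.

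Peak 17 was the only CD47 peak across an annotated acceptor, the 3′ end of an intron where the next exon begins, and the only one with ACTAAC. It covered the last 61 nt of intron 9 and 25 of the 33 nt of exon 10 (75.8%), with its summit 10 nt before the exon. The peak held ACTAAC, which started 34 nt and ended 29 nt before the exon, and ACTAAT, which started 11 nt and ended 6 nt before it. Both are in capitals in the sequence they span, chr3:107768504-107768532 on the minus strand, where 17 nt separate them.

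Motif pair before exon 10: ACTAACtgcctgcttggcttgttACTAAT

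Branch points usually lie in the same stretch of an intron, and none was mapped here. Of the 11 annotated acceptors of CD47 this was the only one with ACTAAC in the last 50 nt of the intron and the only one with a peak across it. In the list 281 of 24019 nuclear peaks crossed an annotated acceptor (1.17%), and 38 did so and held ACTAAC (0.158%). A pair of ACTAAC or ACTAAT motifs at most 20 nt apart was found in 196 nuclear peaks (0.816%). Counted from the acceptors, 31 of the 2172 with ACTAAC in the last 50 nt had a peak across them (1.43%), beside 264 of the 221002 without it (0.119%). Where such acceptors had a peak the motif started at a median of 35 nt from the exon.

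**Figure D4:**
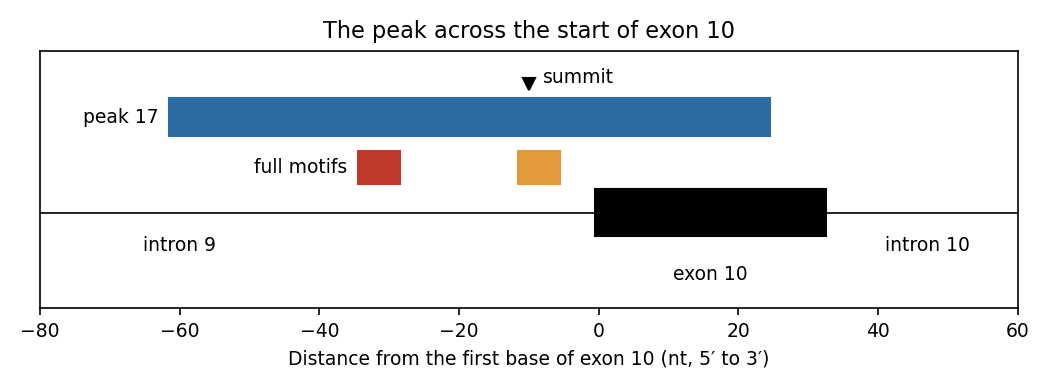
Peak 17 (blue), its summit (triangle), ACTAAC (red) and ACTAAT (orange) are drawn to scale against the start of exon 10 (black), with the distance from the first base of the exon in nt on the horizontal axis. The peak covers 61 nt of the intron and 25 nt of the exon, and both motifs lie in the intron.

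The remaining 20 peaks had neither ACTAAC nor ACTAAT on the strand of the gene, and ACTAAC was found on the opposite strand of none. ACTAAC was therefore in 1 of 21 CD47 peaks, or 4.76% (interval 0.846 to 22.7%), beside 10.1% of nuclear peaks. The shorter TAAC or TAAT, which every ACTAAC or ACTAAT also contains, was in 8 of 21, or 38.1% (interval 20.8 to 59.1%), beside 37.5% of nuclear peaks. Both list shares lay inside the wide intervals of CD47, and 13 of its 21 peaks held none of these motifs. The summits of 5 of the 6 tallest peaks are shown to compare what they contain, as 30 nt on the minus strand with TAAC or TAAT in capitals.

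Summit of peak 20, chr3:107768042-107768071: cccatggggactTAACatctctgcttttcc
Summit of peak 18, chr3:107768344-107768373: taaaagggacactgtcagatgataaaggtt
Summit of peak 17, chr3:107768493-107768522: tgcttggcttgttacTAATcctagcattca
Summit of peak 12, chr3:107769358-107769387: aTAATttgatctggcccgcaaaacagttag
Summit of peak 15, chr3:107768847-107768876: ttgggcaaggggatcgttgccttttgctac

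Peak 20 had 3 of the shorter motifs and 1 of them, TAAC, close to its summit, whereas peaks 13 and 18 had none anywhere in their width. Peak 12, just after exon 9, had 2 sites of TAAT in the 30 nt ttcactctTAATcctttaccagatcaTAAT (chr3:107769383-107769412). Peak 10, before exon 9, had 2 of the shorter motifs, the first in taaactatTAACccgacttggcaagctttg (chr3:107769616-107769645).

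Most motif sites of CD47 lay outside peaks, which together covered only 1699 of the 48772 nt of the gene. Most sites placed without regard to peaks would also lie outside them. The gene had 7 ACTAAC sites, of which 1 was in a peak, and 13 ACTAAT sites, of which 1 was in a peak, both in peak 17. Of these 20 sites 15 were intronic, 1 was in exon 2 and 4 were in the 3′UTR. The 2 ACTAAC sites of the 3′UTR lay 4526 and 4794 nt from the nearest peak, peak 21, and the ACTAAC site of intron 7 was 1415 nt from peak 6. Sites outside peaks are shown beside the one in a peak, as 25 nt with the motif in capitals, because they carry the same 6 letters.

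In peak 17, chr3:107768527-107768532: tggaacctcACTAACtgcctgcttg
In intron 7, chr3:107772577-107772582: gcccatggcACTAACagaaactgga
In the 3′UTR, chr3:107763070-107763075: gttatttgcACTAACaaagctcaaa
In the 3′UTR, chr3:107762802-107762807: tttaaaattACTAACtgccatcacc

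The coordinates on these lines are those of the 6 capital letters. A match shows only that these letters occur in the gene, and a site outside peaks was not tested for binding at lower levels.

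Some of the sequence under the peaks is repeated elsewhere in the genome, which bears on how reads could be placed. Each peak was cut into all its runs of 20 nt, and each run was counted over both strands of the genome. In 7 peaks every run occurred once, and in 16 peaks, these 7 included, over 90% of the runs did. None of the 117 runs of peak 14 in intron 9 occurred once, and their median was 701 copies. Peak 13 had 58 of 82 runs that occurred once, peak 20 had 141 of 196 and peak 11 had 25 of 32. Peak 17 had 65 of 67, and peak 18 had all 47. The authors had discarded alignments of low mapping quality before calling peaks, and the part of repeated sequence in the heights of peaks 13, 14 and 20 was not tested.

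Few coding genes had as many peaks as CD47. Of 20163 coding genes 4750 (23.6%) had a peak on the coding strand, the median being 2, and 172 had 21 or more (0.853%). Per 10 kb of gene CD47 had 4.31 peaks, beside a median of 0.375 for genes with a peak, and 2.65% of those genes reached its value. Some neighbouring peaks were only a few nt apart. With peaks no more than 50 nt apart merged over the whole list, CD47 had 12 regions, or 2.46 per 10 kb, 258 coding genes had as many or more (1.28%), and 3.41% of the genes with a region reached its density. Among 2703 coding genes with a span within 25% of that of CD47, 827 had a peak, again with a median of 2, and 18 had 21 or more, up to 63. CD47 peaks lay close together: 19 of 21 had the centre of another peak within 250 nt (90.5%), beside 50.1% of nuclear peaks, a share given without an interval because neighbours count each other. A window of 2500 nt held up to 15 CD47 peaks, a number that 74 genes reached, or 1.56% of the genes with a peak. When peaks with gaps of at most 250 nt were joined, the longest run in CD47 had 14 peaks, and 59 of 15134 runs in the list (0.39%) were as long, the longest with 72 peaks.

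**Figure D5:**
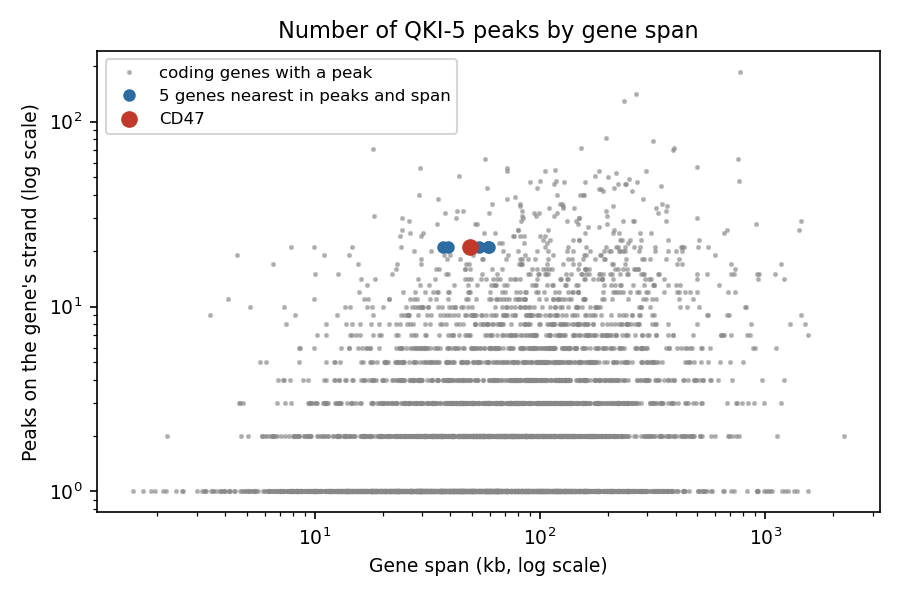
Each grey point is a coding gene with at least 1 peak, placed by its span in kb and the number of peaks on its strand, both on log scales. CD47 (red, 48772 nt and 21 peaks) lies well above the median of 2 peaks. The 5 genes in blue also have 21, because they were chosen as nearest to CD47 in number of peaks and span.

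The 5 coding genes closest to CD47 in span and number of peaks were BICD2, CSNK1A1, SEPTIN2, FUBP3 and ACIN1, each with 21 peaks and a span of 37051 to 59388 nt. Likeness was judged from these 2 measures only, and the genes differed in where the peaks lay. The distance from the first peak to the last was 65.4 to 94.3% of the gene, against 15.1% in CD47. BICD2, an adaptor of the dynein motor, had 18 of its 21 peaks in the 3′UTR, and SEPTIN2, which encodes a septin of the cytoskeleton, had 15. CSNK1A1 (a casein kinase) and ACIN1 (a nuclear protein of splicing complexes) each had 5 there, and FUBP3 (a single-stranded nucleic acid-binding protein) had 1, whereas CD47 had 0. BICD2 and SEPTIN2 also packed 19 and 16 peaks into 2500 nt, so the crowding of CD47 was not particular to it. The tallest peaks of these genes were between 54 (FUBP3) and 302 (BICD2), and CD47, at 174, lay within that range. QKI itself had 15 peaks over 164593 nt, or 0.911 per 10 kb, with 9 of them in the 3′UTR and a tallest height of 125.

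Among genes that act with CD47, each had fewer peaks than CD47 itself, without regard to gene span. Of 24 such genes looked up, 9 had at least 1 peak, beside 23.6% of all coding genes, and together they had 28 peaks, at most 10 in a gene. Of 10 receptors, ligands and membrane partners 2 had peaks. ITGB1, the integrin β1 chain, had 4 peaks, up to a height of 49, and ITGAV, the αV chain, had 1 peak with a height of 27 that held ACTAAC. SIRPA, SIRPG, THBS1, THBS2, CD36, KDR, ITGB3 and ITGA4 had 0. Of 4 partners of the cytoplasmic tail 1 had a peak, UBQLN1, a ubiquilin of protein turnover, with 1 peak of height 28 that held ACTAAC, and UBQLN2, BNIP3 and GNAI2 had 0.

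Genes of CD47 maturation and of delivery through the 3′UTR had 16 peaks in 3 of 4 genes. RAC1, a GTPase of the actin cytoskeleton, had 10 peaks, 1 of them in its 3′UTR, and a tallest height of 102. Per 10 kb of gene RAC1 had 3.4 peaks, beside 4.31 in CD47. ELAVL1, which encodes the RNA-binding protein HuR, had 5 peaks, 2 of them in its 3′UTR, and a tallest height of 31. QPCTL, the enzyme that modifies the amino terminus of CD47, had 1 peak with a height of 16, and SET had 0. Of 6 other genes of phagocytosis 3 had peaks, namely LRP1 with 3, PTPN11 with 2 and B2M with 1, all of height 28 or less, and CALR, PTPN6 and CD274 had 0. The list holds no expression values, so a gene whose RNA was scarce in these cells and a gene whose RNA was not bound cannot be told apart.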

How the data were processed

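QKI-5 HITS-CLIP libraries of mesHMLE cells were analysed from the authors' single list of peaks. The authors trimmed reads with cutadapt 1.3, mapped them to hg19 with TopHat2 2.0.10, removed alignments of low mapping quality with SAMtools, merged the libraries from immunoprecipitation and ran MACS2 2.1.1.20160309 for either strand against size-matched input. Each deposited peak has a position, strand, summit and height, and the height is a signal over all merged libraries, with no value for a single sample. Positions were written with the first base counted as 1.

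Gene models came from GENCODE release 44 on hg19, and sequence from GRCh37. Of 24037 peaks, 18 were not on nuclear chromosomes and were left out of sequence and annotation work. A peak belonged to the feature that held its centre. Motifs were searched on the strand of the peak within its width. The members and lists were chosen with earlier results of these data known. The genes named were CD47, QKI, the 5 coding genes with at least 5 peaks and a span within 25% of that of CD47 whose number of peaks was nearest, with ties by nearest span, and 25 genes of the CD47 pathway, of which 1 had no entry under its symbol among the coding genes used. Shares have 95% Wilson intervals. No test was made, because the immunoprecipitation libraries were technical replicates, which the authors describe as sharing their biological input, and were pooled. Alternatives were other ways to place peaks, a height filter, merged peaks, other distances and other motifs. The summit sequence of 1 of the 6 tallest peaks is not reported here. The search was tested on simulated sequences. Python 3.11.15, numpy 2.4.6, pandas 2.3.3, scipy 1.17.1 and matplotlib 3.10.9 were used.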

Additional observations from a re-analysis of the deposited data

How the results depend on the processing

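No paired analysis was possible because the peaks were called on pooled libraries and the list has no value per library, and for the same reason no replicate could be left out. Of 30 alternatives 7 moved a count or density by over 1.5 times, as computed from rounded values. With peaks merged within 50 nt CD47 had 12 regions, 12 of them in introns and 9 in introns 8 to 10, or 2.46 per 10 kb, and the median height was 44 instead of 29, inside the interval of the latter. Counting only peaks that reached the median height of the list, it had 2.87 per 10 kb. That change, from 21 to 14 peaks, is exactly 1.5 times and passed the limit only through rounding. At a distance of 100 nt instead of 250 nt, 4 peaks lay near exon 9 or exon 10. The shorter TAAC or TAAT was found in 8 peaks instead of 1 with ACTAAC. These shifts follow from how each alternative counts. Of the 4 alternatives for the 3′UTR, placing peaks by their summit and using the 3′UTR of any CD47 transcript put none there. The others, a height filter and merging, could not have added a peak there. After the data were seen, 3 alternatives were added. Leaving out the peak under 10 nt wide, or the peak that has no single-copy run, left 20 peaks each, and merging within 50 nt raised the coding genes with as many as CD47 from 172 to 258. Counts of 21 peaks allow only wide intervals, and the depth per library is unknown.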
